A study of Mus musculus with 3 samples.

Results

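The genes described here encode the proteins of the cytosolic ribosome of the mouse, measured in long-term haematopoietic stem cells 2 hours after gamma irradiation. They were taken from the 23185 genes named on the arrays by their symbols: Rpl or Rps followed by a number, with at most 1 further letter and digit, and Rpsa and the Rplp genes, leaving out kinases and symbols that mark pseudogenes. This gave 60 genes, 38 of the large subunit and 22 of the small subunit, each read on all 3 arrays. The cells were the CD150+ CD48- Flk2- part of the Lin- ckit+ Sca+ cells of bone marrow, and they spent the night after the sort in Stemspan SFEM medium, per the labels. They then received 0 Gy (unirradiated), 0.02 Gy (low dose) or 2.5 Gy (high dose), and each dose has 1 array. The labels name no strain, age, sex or number of animals, and all 3 groups share the sort and the night in culture. With 1 array per dose the spread between replicates is unknown; each value below is a difference between single arrays, with no p-value, and cannot be set against biological or technical error. In bulk RNA, fewer cells that use a gene and less of its RNA per cell cannot be told apart.

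A ribosome has a small subunit, which reads the mRNA, and a large subunit, which joins the amino acids, and each subunit is built from its own set of proteins on ribosomal RNA in the nucleolus. The genes are used in every cell, and their mRNAs commonly begin with a run of pyrimidines, the terminal oligopyrimidine (TOP) tract, through which the TOR kinase and the protein Larp1 set how much of them is translated. Haematopoietic stem cells are known for a low rate of protein synthesis, and loss of 1 copy of certain ribosomal protein genes causes Diamond-Blackfan anaemia. Ribosomal proteins that are not built into ribosomes, among them Rpl5 and Rpl23, can bind Mdm2, the ubiquitin ligase that acts on p53. An array of mRNA levels reads none of the translation or the protein.

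The start sites of the genes whose values stand out below are shown to let the bases around them be read. RefSeq promoters of GRCm38.p6, 300 bases long with 250 before the annotated start and 50 after it, were matched for 46 of the 60 genes; where a gene had several starts the first in the table was used. Each line gives 15 bases on either side of the start, 5′ to 3′. Capitals mark the longest run of C or T that overlaps the 10 bases on either side of the start, as far as it lies within the printed bases. The longest run need not be the one at the start. In Rps15a a shorter run, in small letters, spans the start.
Rpl27 (chr11:101442230-101442259, plus strand): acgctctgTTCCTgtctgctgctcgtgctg
Rpl37 (chr15:5116598-5116627, plus strand): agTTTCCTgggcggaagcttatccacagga
Rplp0 (chr5:115559452-115559481, plus strand): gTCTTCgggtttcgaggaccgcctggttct
Rpl27a (chr7:109519180-109519209, plus strand): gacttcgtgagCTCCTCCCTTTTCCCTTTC
Rps25 (chr9:44407699-44407728, plus strand): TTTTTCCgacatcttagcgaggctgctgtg
Rps23 (chr13:90923107-90923136, plus strand): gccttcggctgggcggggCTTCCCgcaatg
Rpl13 (chr8:123102335-123102364, plus strand): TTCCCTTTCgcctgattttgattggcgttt
Rps15a (chr7:118116133-118116162, minus strand): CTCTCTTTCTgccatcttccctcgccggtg
Rps9 (chr7:3704026-3704055, plus strand): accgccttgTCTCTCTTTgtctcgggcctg
Rps13 (chr7:116334176-116334205, minus strand): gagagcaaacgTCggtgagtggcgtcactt
Rps27l (chr9:66946071-66946100, plus strand): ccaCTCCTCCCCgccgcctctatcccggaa

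A run was counted where it overlapped the 10 bases on either side of the start. Runs of at least 8 pyrimidines were counted for 15 of the 46 genes (32.6%), against 13.5% of 27025 promoters of the same length. Runs of at least 10 were counted for 9 (19.6%), against 6.83%. A counted run need not reach the start. Those of Rps25, Rpl13, Rps15a and Rps27l end before it, so they are not shown to be TOP tracts. The shorter run of Rps15a, in small letters above, does span the start. Of the printed genes, Rpl27a, Rps25, Rpl13, Rps15a, Rps9 and Rps27l had a run of at least 8. Rpl27a had one of 20 bases, past the end of the printed window, and Rps13 one of 2. The motif CCGGAAG, the core bound by ETS factors, was found on either strand in 16 of the 46 promoters (34.8%) and in 9.12% of all. AAGATGGC, which resembles the site of YY1, was in 4 (8.70%, against 2.88%), and TATAAA in 4 (8.70%, against 14.2%), with both strands searched. CCGGAAG ends in the AAG with which AAGATGGC begins, so a match of each can share these bases. These are matches of letters around annotated starts, which need not be the starts used in these cells. Of the genes past the level minimum given below, the 12 with a run of at least 8 had a median log2 difference from the unirradiated array of 0.20 at the low dose, with a range of −0.94 to 0.78, and the 20 with a shorter run 0.13, with −1.15 to 1.18. At the high dose the medians were 0.13 (−0.41 to 0.97) and 0.0070 (−0.78 to 0.48). The ranges overlap in both comparisons, and the split is by any counted run, whether or not it reaches the start.

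Levels are the authors' deposited log2 values, 1 per gene and array. A level minimum was set at 4.55, the middle of the named genes' 3-array means, and 42 of the 60 genes passed it while 18 did not. The deposited values of the ribosomal protein genes spanned nearly the whole scale of the arrays, from 2.07 for Rpl10 on the low-dose array to 12.1 for Rplp1 on the same array. Rplp1, a protein of the stalk that recruits elongation factors, read 11.94 on the unirradiated array and 12.12 on the low-dose array, with the high-dose array 0.06 above the unirradiated one. Rps21 of the small subunit read 11.58, 11.66 and 11.59 (unirradiated, low dose, high dose). Rps14, a small subunit gene whose human counterpart is lost in the 5q- syndrome, read 2.85, 2.83 and 2.86, and Rps29 3.10, 3.05 and 2.93. Levels of different probe sets cannot be set against each other, so a low value is not read here as little mRNA. Nearest to the minimum were Rpl36a just above it (mean 4.60) and Rps2 just below it (mean 4.51). How many probes each gene has, and how many of them also match the many processed copies of these genes, is not given in the sources used here.

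**Figure D1:**
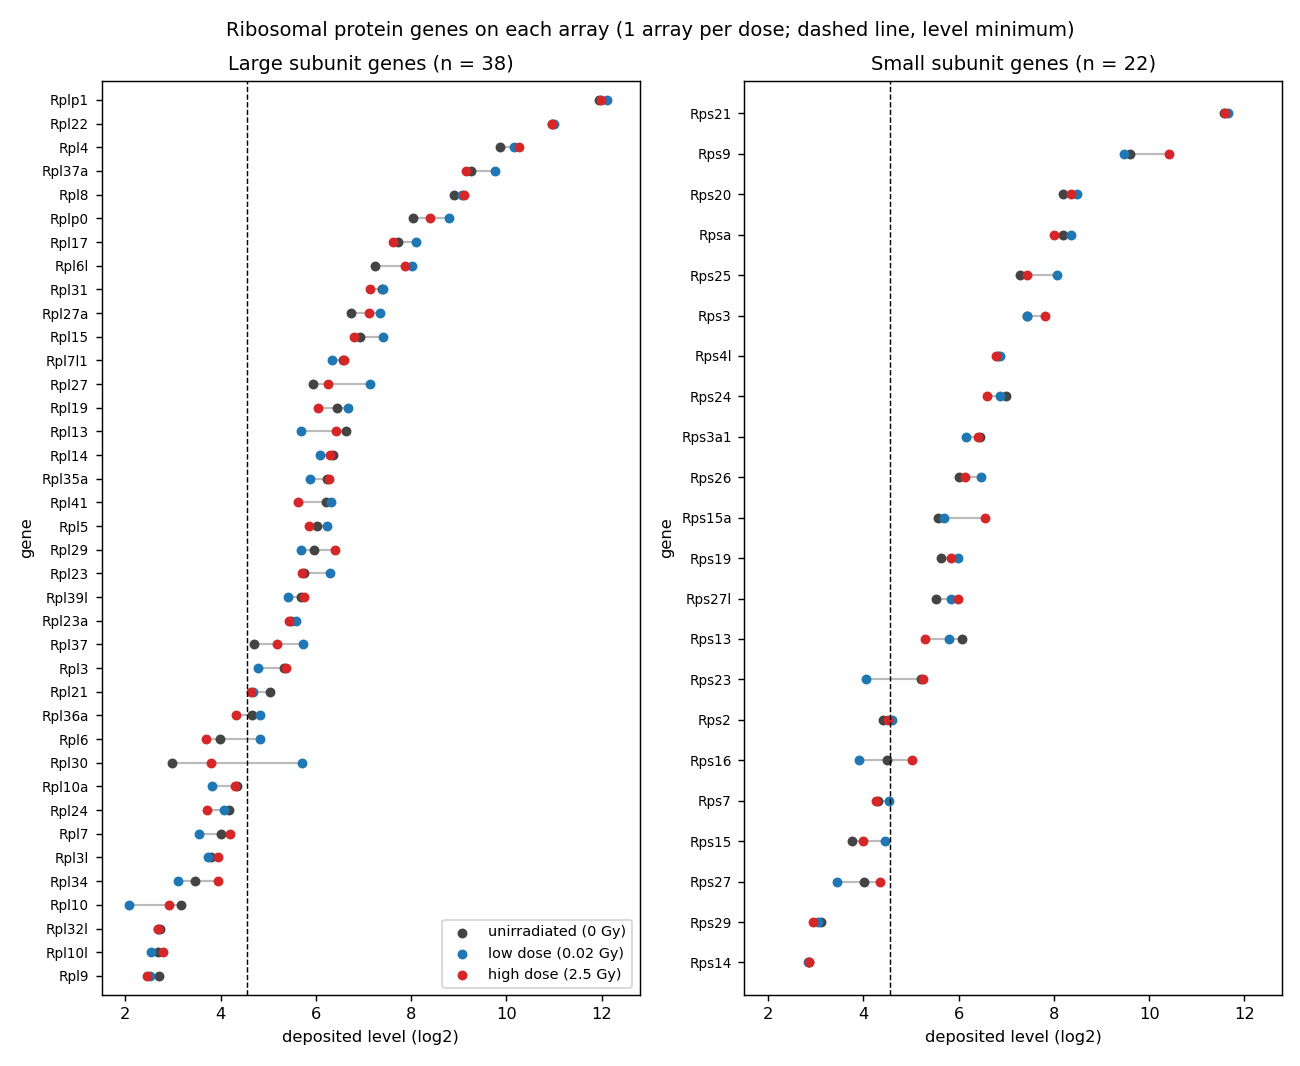
Deposited log2 level of the 60 ribosomal protein genes on each of the 3 arrays, large subunit genes at the left and small subunit genes at the right, ordered by mean level; 1 point is 1 array, the grey line joins the lowest and highest, and the dashed line is the level minimum of 4.55. The order is of probe sets, whose levels cannot be set against each other; the widest line is that of Rpl30, from 2.98 to 5.70, while Rpl22, Rps21 and Rps14 have lines shorter than 0.1.

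The median of all probe sets was 4.60 (unirradiated), 4.54 (low dose) and 4.55 (high dose). The sort markers were read: of 5 measured stem cell genes (Kit, Slamf1, Procr, Hlf and Mecom) 5 were past the level minimum, with Slamf1, which encodes CD150, at 5.24, 4.75 and 4.84; Cd48 was below it on every array (3.62, 3.31 and 3.40), while Flt3, which encodes Flk2, read 4.60, 4.95 and 4.93. Of the T cell markers 0 of 5 were past it, of the B cell markers 2 of 5, of the erythroid markers 3 of 3 and of the megakaryocyte markers 6 of 6. Of 6 mature myeloid markers 5 were past it, and the summed log2 level of the 6 was 32.4, 35.6 and 35.2. At both doses 5 of the 6 were above the unirradiated array, S100a8 by 1.30 (low dose) and 1.24 (high dose), while Ly6g was at −0.73 and −0.85. The irradiated arrays also differed from the unirradiated array by level: of 5 equal classes of genes by mean level, the highest, which holds 23 of the 42 ribosomal protein genes, had a median difference over all genes of 0.19 (low dose) and 0.14 (high dose), against −0.06 and −0.04 in the lowest class. The part of the myeloid genes and of the level trend in the values below was not tested.

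At 0.02 Gy the ribosomal protein genes lay slightly above the unirradiated array at their median, and a few of them differed widely in both directions. The median difference of the 42 genes from the unirradiated array was 0.14 on the log2 scale, beside 0.04 for all 11593 named genes past the minimum. Of the 42, 29 were above 0 (69.0%, against 54.2% of all genes) and 13 below; after a loess correction of each array over level 21 were above 0 (50%, against 49.7%). Rpl27 and Rpl37 were at least 2-fold higher (1.33% of all genes were) and Rps23 at least 2-fold lower (1.14%). At 1.5-fold the counts were 6 higher and 2 lower, against 7.5% and 4.72% of all genes, or 8 of 42 either way (19.0%, against 12.2%). The 23 genes in the highest class of level had a median of 0.18, beside the 0.19 of all genes there. After loess the median of the 42 was −0.0084, the opposite sign. Rpl27, Rpl37, Rpl13 and Rps23 were the 4 still past 1.5-fold after loess (9.52%, against 11.02% of all genes). The share of the 42 was then below that of all genes, not above it.

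Among large subunit genes, Rpl27 read 5.94 on the unirradiated array, 7.13 at the low dose and 6.25 after 2.5 Gy, a difference of 1.18 (2.27-fold) at the low dose. The low-dose array stands above both others for this gene. Rpl37 read 4.70, 5.73 and 5.18, with a difference of 1.02 (2.03-fold) at the low dose. Both irradiated arrays were above the unirradiated one for Rpl37, the high-dose array by 0.48. Rplp0, the base of the stalk and a common reference gene of quantitative PCR, read 8.04, 8.79 and 8.40, so it was 0.75 (1.68-fold) higher at the low dose, and 0.35 above the unirradiated array at the high dose. Its stalk partner Rplp1 differed by 0.18 and 0.06, and both signs turned after loess. Rpl27a was 0.60 higher at the low dose (6.74, 7.34 and 7.12), and Rpl23, one of the Mdm2-binding proteins, 0.56 higher (5.74, 6.30 and 5.71) with the high-dose array level with the unirradiated one. Rpl13 went the other way, with 6.63, 5.70 and 6.41, a low-dose difference of −0.94. Rpl3, which sits at the site of peptide bond formation, was 0.56 lower there, at 5.34, 4.78 and 5.37.

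Among small subunit genes at the low dose, Rps25, known to be needed by several viral and cellular internal ribosome entry sites, read 7.28, 8.06 and 7.43. It was 0.78 (1.71-fold) higher at the low dose, with the other arrays 0.14 apart. Rps23, which lies at the decoding centre, read 5.21, 4.06 and 5.25, a difference of −1.15 (2.22-fold lower). On the low-dose array it lies below the level minimum, so with the minimum required on both arrays 0 genes were at least 2-fold lower. The Diamond-Blackfan genes Rps19, Rps24 and Rps26 differed by 0.37, −0.14 and 0.47, and Rpl35a of the large subunit by −0.37. Rps14 and Rps7 lay below the minimum on their mean, with differences of −0.02 and 0.24. Rpsa, which is also known as the laminin receptor, read 8.18, 8.35 and 8.01, and its low-dose difference of 0.17 turned sign after loess and after quantile normalization. After loess the sign turned for 8 of the 43 named ribosomal protein genes at the low dose and 5 after 2.5 Gy, none with a difference over 0.18.

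**Figure D2:**
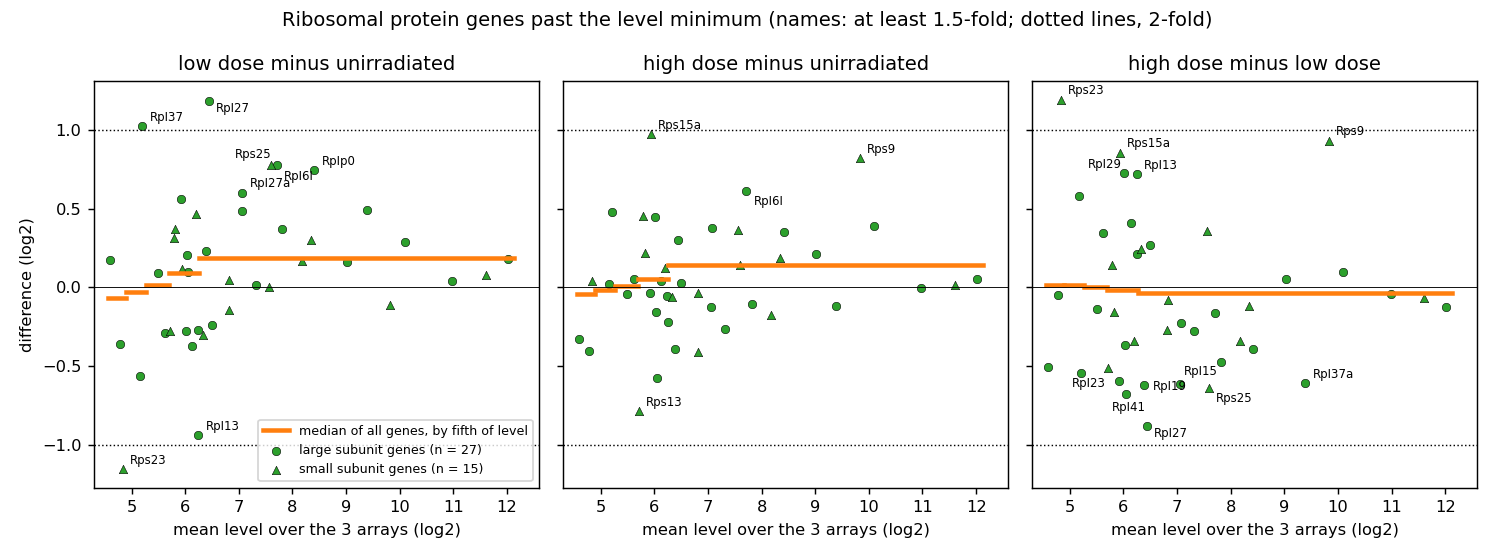
Difference between arrays (log2, vertical) against the mean level over the 3 arrays (log2, horizontal) for the 42 ribosomal protein genes past the level minimum, as circles (27 large subunit genes) and triangles (15 small subunit genes); orange lines are the medians of all named genes in 5 equal classes of level, and dotted lines mark 2-fold. At the low dose Rpl27 and Rpl37 lie above the upper dotted line and Rps23 below the lower one, and at the high dose no gene passes either line.

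At 2.5 Gy the ribosomal protein genes lay as close to the unirradiated array as genes in general did. The median difference of the 42 genes was 0.03, beside 0.02 for all genes, and turned to −0.06 after quantile normalization and −0.07 after loess. Above 0 were 23 of 42 (54.8%, against 53.4%), and 17 after loess (40.5%, against 49.4%). None of the 42 was at least 2-fold higher (1.15% of all genes were) or at least 2-fold lower (0.578%), on these single arrays and with no test. At 1.5-fold 3 were higher (6.07% of all genes) and 1 was lower (3.44%). Either way this was 4 of 42, 9.52%, against 9.51% of all genes. In the highest class of level the 23 genes had a median of 0.03, below the 0.14 of all genes there.

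The gene with the largest difference at 2.5 Gy was Rps15a of the small subunit, which read 5.58, 5.69 and 6.55, a difference of 0.97 (1.96-fold). The high-dose array stands above both others, which lay 0.12 apart. Rps9, a primary binder of small subunit RNA, also stood highest on that array, with 9.59, 9.48 and 10.4, and was 0.82 (1.77-fold) higher. Rpl6l was 0.78 (low dose) and 0.61 (high dose) above the unirradiated array (7.25, 8.03 and 7.87). RefSeq classes Rpl6l as a pseudogene although its symbol does not say so, and its parent gene Rpl6 read 3.98, 4.83 and 3.70. Lower at the high dose was Rps13, with 6.07, 5.79 and 5.28, a difference of −0.78 (1.72-fold lower). The next lowest were Rpl41, which encodes a very short peptide, at −0.58 (6.21, 6.31 and 5.63), Rps24 at −0.41, Rpl21 at −0.40 and Rpl19 at −0.39.

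The mRNAs of proteins that bind Mdm2 did not share a direction at 2.5 Gy. Rpl5 read 6.02, 6.23 and 5.87, a difference of −0.16, and Rps3, which also acts in DNA repair, was at 0.36 (7.44, 7.44 and 7.81). Rpl23 was at −0.03, which median centring turned to 0.01, and Rps7, below the minimum on its mean, at −0.04. Rps27l, a close relative of Rps27 that p53 is known to induce, read 5.53 unirradiated, 5.84 at the low dose and 5.99 after 2.5 Gy. Its differences were 0.31 (1.24-fold) for the low dose and 0.46 (1.37-fold) for the high dose. They lie in the order of the doses and within the range of the other ribosomal protein genes. On the same arrays the p53 targets Ccng1 and Cdkn1a were 2.02 and 1.65 higher at the high dose, and Mdm2 itself read 5.29, 5.23 and 6.56. Rps27 read 4.02, 3.44 and 4.34, below the minimum on every array.

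The other genes that have a close relative, or are one, are given side by side. Rpl3 is described above, and its relative Rpl3l, a gene of heart and skeletal muscle, read 3.79, 3.74 and 3.95, below the minimum. Rpl22 read 10.97, 11.01 and 10.97, a range of 0.04. Rpl7l1 was at −0.24 and 0.03 (low dose, high dose) and Rpl39l, expressed chiefly in testis, at −0.29 and 0.06. Rps4l, which RefSeq classes as a transcribed pseudogene, was at 0.05 and −0.03. Rpl10 (3.17, 2.07 and 2.91), its testis relative Rpl10l (2.69, 2.53 and 2.79) and Rpl7 (4.01, 3.55 and 4.20) were below the minimum on all 3 arrays, each with its lowest value at the low dose. Of the 34 genes fixed by name for this description 23 were among the named genes, and the others are not analysed here. They may still be on the arrays, since some of the 2021 unnamed probe sets match further ribosomal protein genes.

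The doses were also set against each other without the unirradiated array. The median of the 42 genes in high dose minus low dose was −0.13, beside −0.0025 for all genes, and 15 were above 0 (35.7%, against 49.4%). Rps23 was at least 2-fold higher at the high dose (1.19; 1.44% of all genes were) and 0 of the 42 were at least 2-fold lower (1.06%), a count on single arrays with no test. The Rps23 difference rests on its low-dose reading of 4.06, below the level minimum, and with the minimum required on both arrays 0 genes were at least 2-fold higher. Past 1.5-fold either way were 12 of the 42 (28.6%, against 11.4% of all genes), 5 higher at the high dose (5.74%) and 7 lower (5.67%). Higher at the high dose were Rps23, Rps9 (0.93), Rps15a (0.85), Rpl29 (0.73) and Rpl13 (0.72). Lower were Rpl27 (−0.88), Rpl41 (−0.68), Rps25 (−0.64), Rpl19 (−0.62), Rpl15 (−0.61), Rpl37a (−0.61) and Rpl23 (−0.59). Several of these lie close to the 1.5-fold line, and after loess 7 of 42 passed it (16.7%, against 11.3%), with Rpl27 and Rpl41 the 2 lower ones.

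The members spread more widely than all genes where the low-dose array was one of the pair. The interquartile range of the 42 differences was 0.59 in low dose minus unirradiated (all genes 0.46), 0.40 in high dose minus unirradiated (0.42) and 0.69 in high dose minus low dose (0.43). After loess these were 0.58, 0.44 and 0.67, beside 0.44, 0.40 and 0.43 for all genes. The low-dose array held the highest of the 3 values for 24 of the 42 genes (57.1%, against 37.4% of all genes) and the lowest for 10 (23.8%, against 32.6%). The unirradiated array held the highest for 6 (14.3%, against 29.6%) and the lowest for 16 (38.1%, against 37.4%), and the high-dose array the highest for 12 (28.6%, against 33%) and the lowest for 16 (38.1%, against 30%). These counts are on the deposited values, and the shares of all genes are not matched by level. After loess 21 of the 42 were above 0 in low dose minus unirradiated (50%, against 49.7%). In high dose minus low dose 15 were (35.7%, against 50.6%). The low-dose array was at least 1.5-fold above both other arrays for Rpl27 and Rps25 (2 of 42, 4.76%, against 2.58% of all genes) and below both for Rpl13 and Rps23 (4.76%, against 1.86%). The high-dose array was above both for Rps9 and Rps15a (4.76%, against 2.06%) and below both for 0 of 42 (1.04% of all genes). The unirradiated array was below both for Rpl6l (2.38%, against 1.85%) and above both for 0 of 42 (1.32%). In none of the comparisons past 1.5-fold were 25 of the 42 genes, against 77.6% of all genes. The 3 comparisons share arrays, so a value that stands out on 1 array enters 2 of them.

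**Figure D3:**
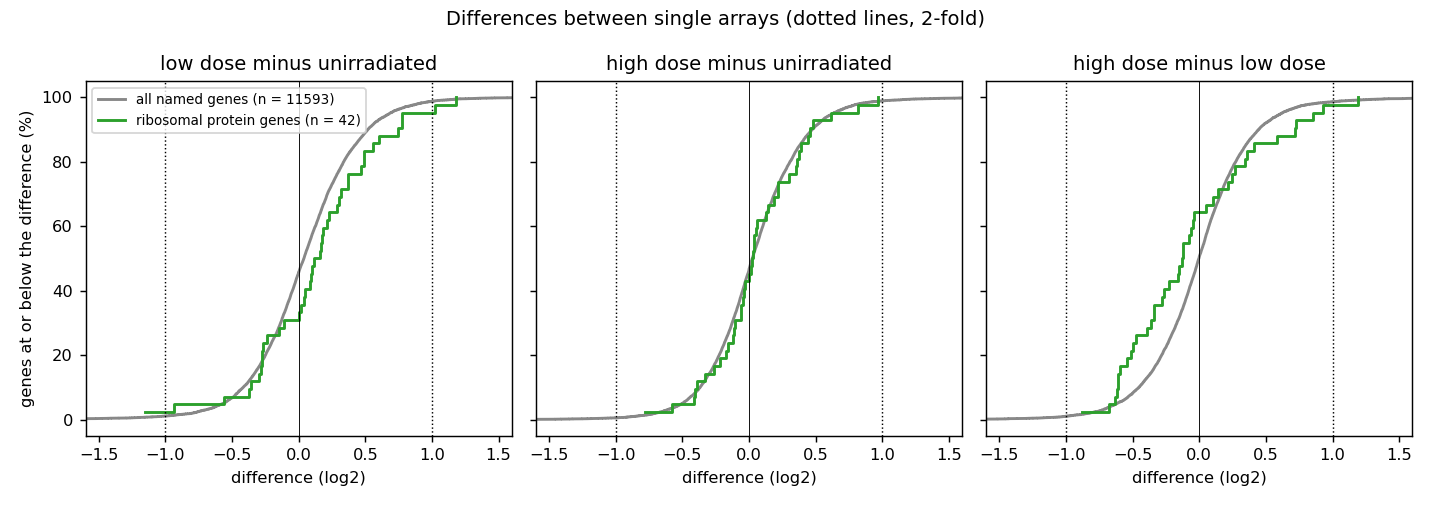
Share of genes (percent, vertical) at or below each difference between arrays (log2, horizontal) for the 42 ribosomal protein genes past the level minimum in green and all 11593 named genes past it in grey; dotted lines mark 2-fold. The curves nearly coincide for high dose minus unirradiated, while for high dose minus low dose 27 of the 42 lie below 0, as do 5838 of the 11593.

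The medians of the subunits lay closer together than the quartiles of either in each comparison. The median of the 27 large subunit genes past the minimum was 0.17 at the low dose, −0.0030 at the high dose and −0.16 between the doses. That of the 15 small subunit genes was 0.08, 0.13 and −0.08. Among the large subunit genes 19 of 27 were above 0 at the low dose (70.4%, against 54.2% of all genes) and 13 of 27 after 2.5 Gy (48.1%, against 53.4%). Among the small subunit genes 10 of 15 were above 0 at each dose (66.7%, against the same shares of all genes). In both dose comparisons the quartiles of the subunits overlapped. After loess the small subunit median turned to −0.13 at the low dose and −0.0021 after 2.5 Gy, and that of the large subunit was 0.06 and −0.10.

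The 18 genes below the level minimum are listed by their range, since signal over background is not known here. Their levels ran from 2.07 to 5.70. Rpl30 was the widest, with 2.98 on the unirradiated array, 5.70 at the low dose and 3.79 after 2.5 Gy, and it is named after its values were seen. Only its low-dose reading lies above the minimum, so no fold is given. Rpl6, Rps16 and Rps2 also had 1 reading above it, Rpl6 at the low dose (4.83), Rps16 at the high dose (5.03) and Rps2 at the low dose (4.60). With all 60 genes counted, 34 were above 0 in low dose minus unirradiated (56.7%, against 47.4% of all named genes), 33 in high dose minus unirradiated (55%, against 46.6%) and 24 in high dose minus low dose (40%, against 49.9%). At least 2-fold higher were 3 in the first of these (1.12% of all named genes), 0 in the next (0.94%) and 2 in the last (1.22%). At least 2-fold lower were 2 (1.17%), 0 (0.638%) and 2 (0.996%).

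The genes that build, regulate and accompany ribosomes were read from lists. Of 45 ribosome biogenesis genes 41 were past the minimum; their medians were 0.12 (low dose) and 0.14 (high dose), with 27 (65.9%, against 54.2% of all genes) and 29 (70.7%, against 53.4%) above 0, and 0 were at least 2-fold higher or lower. After loess these medians were 0.03 and 0.10. The largest at the low dose was Polr1b, a subunit gene of RNA polymerase I, at 0.64. At the high dose they were Gnl3, which encodes nucleostemin, at 0.80, Nop16 at 0.70, and Sbds, mutated in Shwachman-Diamond syndrome, at 0.57. Of 14 other measured genes with TOP mRNAs 9 were past the minimum, with medians of 0.21 and 0.20 and 0 past 2-fold (against the same shares of all genes). After loess the medians were −0.03 and 0.04. Among them Eif3h differed by 0.68 at the low dose and Pabpc1, which encodes a poly(A)-binding protein, by 0.59 at the high dose. Eef1a1, an elongation factor gene, read 3.40, 3.88 and 2.96 and Tpt1 1.92, 2.40 and 1.92, below the level minimum on every array, as were 16 to 18 of the ribosomal protein genes on each.

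Genes of translation initiation and of TOR signalling had medians of 0.14 and 0.14 (15 past the minimum of 18 measured). Of these 0 were at least 2-fold higher (1.33% and 1.15% of all genes were) and 0 at least 2-fold lower (1.14% and 0.578%). Eif4ebp2, a repressor of the cap-binding protein, read 6.87, 7.78 and 6.81, so it was 0.91 higher at the low dose and level after 2.5 Gy. Ddit4, an inhibitor of TOR, read 5.52, 5.77 and 6.46, 0.94 higher at the high dose. Larp1, the binder of TOP mRNAs, was at −0.02 and 0.54. Of 14 ribosome-associated chaperone and quality control genes, 1 was at least 2-fold higher at each dose (1.33% and 1.15% of all genes were), Hspa8 with 1.67 and 1.69, and G3bp1 was at −0.78 and −0.51, with list medians of 0.08 and 0.08, which were 0.02 and 0.0069 after loess. The 8 genes past the minimum of the list of Mdm2 and early p53 targets had medians of 0.22 and 0.81, with 4 at least 2-fold higher at the high dose (1.15% of all genes were) and 0 at the low dose (1.33%).

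Genes of the mitochondrial ribosome and of the proteasome, other large particles built of many subunits, were set beside those of the cytosolic ribosome. The 58 mitochondrial ribosomal protein genes past the minimum, of 76, had medians of 0.21 (low dose), 0.07 (high dose) and −0.10 between the doses. The 38 proteasome subunit genes, of 41, had 0.15, 0.14 and 0.04. Past 1.5-fold either way in low dose minus unirradiated were 15.5% of the mitochondrial, 13.2% of the proteasome and 19.0% of the cytosolic ribosomal protein genes, and 12.2% of all genes. In high dose minus unirradiated the cytosolic genes had the lowest share of the 3 groups, 9.52% against 17.2% (mitochondrial) and 13.2% (proteasome), with 9.51% of all genes. In high dose minus low dose they had the highest, 28.6% against 6.90% and 2.63%, with 11.4% of all genes. The difference between the groups was not tested.

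**Figure D4:**
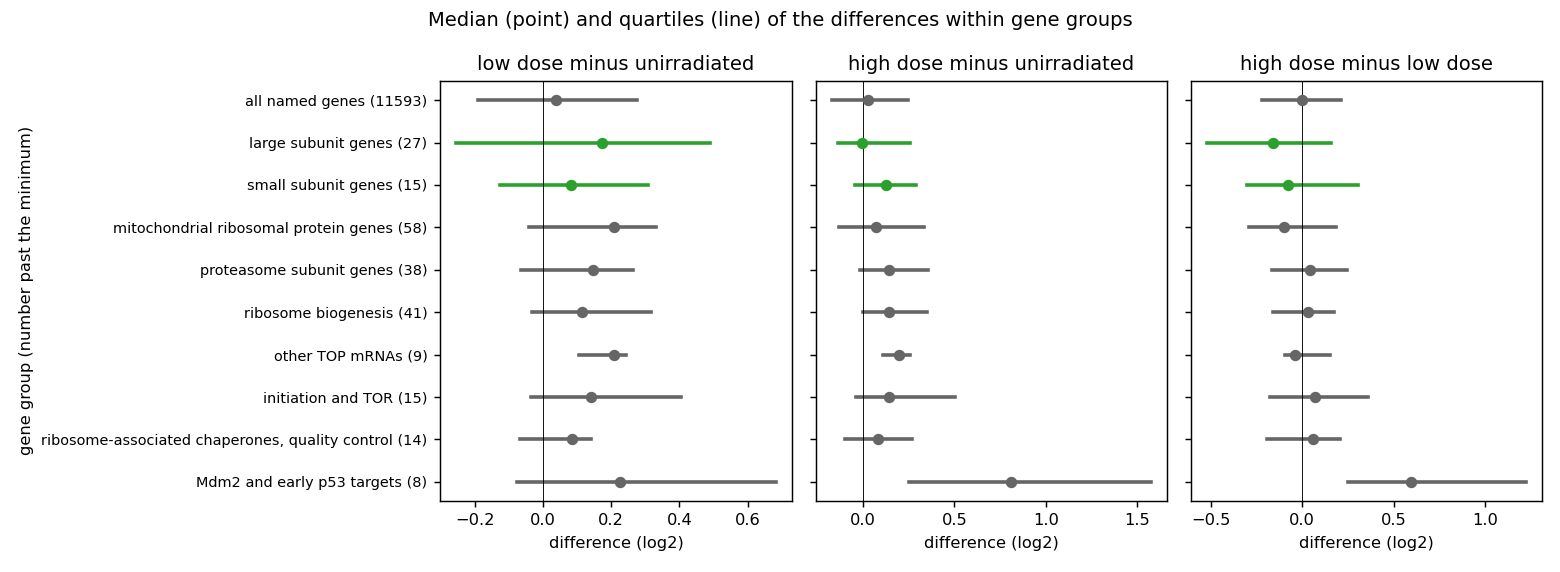
Median (point) and quartiles (line) of the difference between arrays (log2, horizontal) within each gene group past the level minimum, with the number of genes in brackets and the ribosomal protein genes in green. The medians of the ribosomal protein genes lie between −0.16 and 0.17 in all 3 panels, and that of Mdm2 and early p53 targets at 0.81 in high dose minus unirradiated.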

How the data were processed

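Total RNA of 3 samples, 1 per dose, was labelled with biotin by an Affymetrix protocol for whole transcripts and read on arrays, per the labels' protocols. The authors' deposited log2 values, 1 for each of 25206 probe sets, were used as given. The submitters' processing notes name Partek alone; background correction, normalization and any centring stay unknown, and the log2 scale was read from the values (1.55 to 12.4). Array medians are in the report. Names came from the platform annotation table; 2021 probe sets it does not name were not used. Members, gene lists and rules were chosen with earlier results of these data known. Differences were taken between single arrays for genes with a 3-array mean of at least 4.55. Named were the 8 highest and 8 lowest members of each comparison, the genes of 7 pairs of relatives, a fixed list by role, and the 3 largest differences of each pathway list; genes such as Rpl30, Rpl6 and the other low readings were named after their values were seen. With no test, whether differences exceed the array error is unknown. Alternatives were other level minimums, quantile normalization, median centring, loess (span 0.3), other fold sizes, the mean, and leaving out relatives. The steps were tested on simulated data. Python 3.11.15, pandas 2.3.3 and statsmodels 0.14.6 were used.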

Additional observations from a re-analysis of the deposited data

Results flagged for a closer look

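Of 18 probe sets whose symbols mark ribosomal protein pseudogenes, which entered no comparison, 11 were past the level minimum, and 1 of these stood at least 2-fold above and 1 at least 2-fold below the unirradiated array at the low dose (1.33% and 1.14% of all genes past the minimum did). Rps12-ps24 read 4.52 (unirradiated), 5.77 (low dose) and 4.99 (high dose), a difference of 1.26 at the low dose, and its unirradiated value lies just below the level minimum. Rpl17-ps9 read 7.87, 6.71 and 7.44, a difference of −1.16 at the low dose. Rpl17, named after its values were seen, read 7.72, 8.10 and 7.62, a difference of 0.37 in the other direction. At the high dose, where Rps15a was at 0.97, Rps15a-ps5 was at 0.57 and Rps15a-ps4 at 0.24. The Rps15a pseudogene probe sets below the minimum ran from −0.60 (Rps15a-ps8) to 0.02 (Rps15a-ps1) there.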

How the results depend on the processing

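No paired analysis was possible because single arrays carry no replicate numbers to pair. A median is said to move where it shifts by over 0.1. After loess the median of the ribosomal protein genes was −0.0084 (low dose) and −0.074 (high dose), against 0.14 and 0.03; the other alternatives to these medians, and all of those for high dose minus low dose, stayed within 0.1 of the reported values, although quantile normalization turned the high-dose median to −0.064. Counts at 2-fold are small, so a single gene moves them. In low dose minus unirradiated they were 2 higher and 1 lower; these became 3 and 2 with no level minimum, 1 and 0 with it at the 75th percentile, 2 and 2 after either quantile normalization or loess, and 2 and 0 with the minimum on both arrays, which was chosen after seeing the data. At 1.5-fold they were 6 and 2, and at 3-fold 0 and 0. In high dose minus unirradiated 0 and 0 became 1 and 0 after median centring and 3 and 1 at 1.5-fold. In high dose minus low dose 1 and 0 became 2 and 2 with no minimum, 0 and 0 with it at the 75th percentile or on both arrays, 2 and 0 by quantile normalization, 5 and 7 at 1.5-fold, and 0 and 0 at 3-fold. Without the 2 genes that RefSeq classes as pseudogenes, also chosen after seeing the data, the medians and the 2-fold counts stayed as they were, and the 1.5-fold counts higher than unirradiated went from 6 to 5 (low dose) and from 3 to 2 (high dose), as Rpl6l drops out. Of the 43 named ribosomal protein genes, 8 (low dose) and 5 (high dose) changed sign after loess, all with differences of at most 0.18. The files give no signal over background, which limits what the low readings show.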
